A study of Homo sapiens with 2 samples.

Results

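The genes described here encode the proteins of the mitochondrial ribosome. They are all genes of the deposited table whose symbol is MRPL or MRPS followed by a number, with or without a final A, B or C, and pseudogenes were left out. The rule found 76 genes among 28038 listed, of which 48 carry the large subunit name (MRPL) and 28 the small subunit name (MRPS). MRPL53 and MRPS12 were not analysed here. The choice used symbols only and no measured value.

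Poly(A) RNA was sequenced from 2 cultures labelled OVCAR-3, a much used line derived from a human ovarian carcinoma. The first culture (OE) overexpressed IGF2BP3, an RNA-binding protein that recognises methylated messenger RNA, and the second (NC) carried a viral vector with no insert. The labels name no promoter, clone, treatment or time after transfer of the vector for either culture, and nothing else separates them there. The OE library held 48017861 counts and the NC library 43190215.

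The targeted gene separated the libraries as labelled: IGF2BP3 had 6376 counts in the OE library and 2944 in the NC library, a 1.96-fold ratio. FASN, the fatty acid synthase named in the series title, had 26594 counts in the OE library and 22083 in the NC library, a 1.09-fold ratio. Markers of the labelled cell type were mostly low in both libraries, and apart from KRT18 they did not bear out the label. The identity of the line was not tested. Of 12 epithelial markers 9 were listed and 1 reached 10 CPM (counts per 1000000 counts of the library), and the list summed to 115 CPM in OE and 118 CPM in NC, nearly all of it from KRT18; CDH1 had 2 counts in each library. Of 9 markers of serous ovarian tumours 3 were listed, PAX8 among them with 32 counts in OE and 28 in NC, and the list summed to 1.04 CPM in OE and 0.969 CPM in NC. Of 6 mesenchymal markers 3 reached 10 CPM, and the list summed to 2231 CPM in OE and 2257 CPM in NC, of which VIM gave 2149 CPM in OE and 2175 CPM in NC. Leukocyte markers summed to 3.15 CPM in OE and 2.72 CPM in NC, fibroblast markers to 3.91 CPM in OE and 4.22 CPM in NC, and endothelial markers to 0.0836 CPM in OE and 0 in NC.

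Mitochondria have their own ribosome, which translates the few messenger RNAs of the mitochondrial genome, all of them for subunits of the respiratory chain and ATP synthase. Its RNAs are made inside the organelle, but all of its proteins are encoded in the nucleus, made in the cytosol and imported. Some of these proteins descend from those of the bacterial ribosome and others are found only in mitochondria. Carcinoma cells, like other dividing cells, express these genes as a broadly active housekeeping set, and promoters of many of them carry sites for NRF1 and for ETS-family factors such as GABP.

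Promoter sequences are shown for 6 of the genes as a description, since several of the genes start close to a neighbour on the opposite strand. Whether promoter sequence bears on the ratios was not tested. RefSeq promoters on GRCh38.p14 were matched to 67 of the 76 genes by symbol, and 9 had no match. The lines give the stretch of the 250 bases upstream of the RefSeq start that lies in no annotated exon. They run 5′ to 3′ on the gene's own strand, which is the minus strand for all 6. The MRPL36 stretch lies inside the GENCODE 29 span of its gene (1798386 to 1801366), downstream of the start used for neighbour distances. Capitals mark the ETS core CCGGAAG, printed as its reverse complement where it lies on the other strand, or, in MRPL36, the NRF1 site. MRPL47 and MRPS34 are shown for the short gap to their neighbours NDUFB5 and EME2, MRPL3 for its level, and MRPS10, MRPS31 and MRPL36 as genes among the lower ratios. All 6 hold a marked site, so they do not represent the set: the ETS core was found in 22 of the 67 promoters and the NRF1 site in 8. MRPL46, MRPS17, MRPL32 and MRPS2, with lower ratios than these 6, had neither site in their 250 bases, and MRPL38 and MRPL40 had the ETS core.
MRPL47, chr3:179604655-179604689: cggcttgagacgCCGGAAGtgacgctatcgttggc
MRPS34, chr16:1773156-1773206: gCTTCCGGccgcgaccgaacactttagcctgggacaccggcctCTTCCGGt
MRPL3, chr3:131502984-131503221: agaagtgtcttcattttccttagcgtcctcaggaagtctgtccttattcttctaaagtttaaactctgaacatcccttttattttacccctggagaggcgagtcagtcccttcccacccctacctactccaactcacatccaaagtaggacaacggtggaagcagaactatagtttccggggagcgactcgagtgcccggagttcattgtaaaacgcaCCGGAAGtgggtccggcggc
MRPS10, chr6:42217866-42218111: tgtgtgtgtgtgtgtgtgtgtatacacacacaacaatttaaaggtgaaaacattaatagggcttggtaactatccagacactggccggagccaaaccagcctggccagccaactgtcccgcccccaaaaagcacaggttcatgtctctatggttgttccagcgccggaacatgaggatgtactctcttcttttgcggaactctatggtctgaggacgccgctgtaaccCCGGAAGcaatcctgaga
MRPS31, chr13:40771191-40771440: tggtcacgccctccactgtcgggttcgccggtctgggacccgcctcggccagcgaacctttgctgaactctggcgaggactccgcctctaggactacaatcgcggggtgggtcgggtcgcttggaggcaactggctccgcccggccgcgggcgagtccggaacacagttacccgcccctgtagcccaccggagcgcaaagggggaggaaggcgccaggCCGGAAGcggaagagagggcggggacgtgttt
MRPL36, chr5:1799896-1800087: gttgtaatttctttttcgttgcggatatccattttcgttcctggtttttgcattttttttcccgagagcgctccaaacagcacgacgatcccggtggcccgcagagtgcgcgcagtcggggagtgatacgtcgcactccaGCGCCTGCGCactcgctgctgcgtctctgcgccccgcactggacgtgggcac

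The ETS core was present on either strand of the 250 upstream bases in 22 of the 67 promoters (32.8%), 13 of 41 of large subunit genes and 9 of 26 of small subunit genes. Among all 27305 RefSeq promoters it was present in 8.82%, and among the 10151 promoters of genes measured here in 15.9%. The NRF1 site (GCGCA, any 1 base, then GCGC) was present in 8 of the 67 promoters (11.9%), against 5.53% of all promoters and 10.9% of those of measured genes. The CCAAT box (CCAAT) was present in 26.9% of the 67 promoters, against 35.2% of promoters of measured genes. The GC box (GGGCGG) was present in 55.2% of the 67, against 68.1% of promoters of measured genes. The 4 motifs were searched on both strands, and none contains another. A match is a run of letters and says nothing of binding.

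Both libraries expressed nearly the whole set, and the order of the genes was almost the same in each. Over the 76 genes the FPKM values (counts per kilobase of gene and 1000000 counts) of the OE and NC libraries had a Pearson correlation of 0.999 on the log2 (FPKM plus 1) scale and a Spearman correlation of 0.998, a description of 2 libraries of one cell line. The genes together took 225125 counts, 0.469% of the library, in OE and 212002 counts, 0.491%, in NC. At least 1000 counts in each library were found for 60 of them, and 73 passed a minimum of 50 counts over both libraries. The median count of the 73 was 2503 in OE and 2462 in NC, which lay at percentile 70.3 of the 14157 genes past that minimum.

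The large subunit genes had higher FPKM medians than the small subunit genes in both libraries, by a margin that depends on the gene lengths used. Their median was 23.0 FPKM in OE and 25.3 FPKM in NC over the 47 genes past the minimum. The median of the small subunit genes was 13.1 FPKM in OE and 14.4 FPKM in NC over 26 genes. Per kilobase of the longest GENCODE 29 transcript in place of the deposited length, and per 1000000 counts, the medians were closer: 36.2 in OE and 39.5 in NC for the large subunit genes, and 29.9 in OE and 31.3 in NC for the small subunit genes. The summed FPKM of the large subunit genes was 2.53 times that of the small subunit genes in OE and 2.49 times in NC, so the balance between the subunits differed little between the libraries. Both medians lay above that of all measured genes, 4.18 FPKM in OE and 4.14 FPKM in NC.

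**Figure D1:**
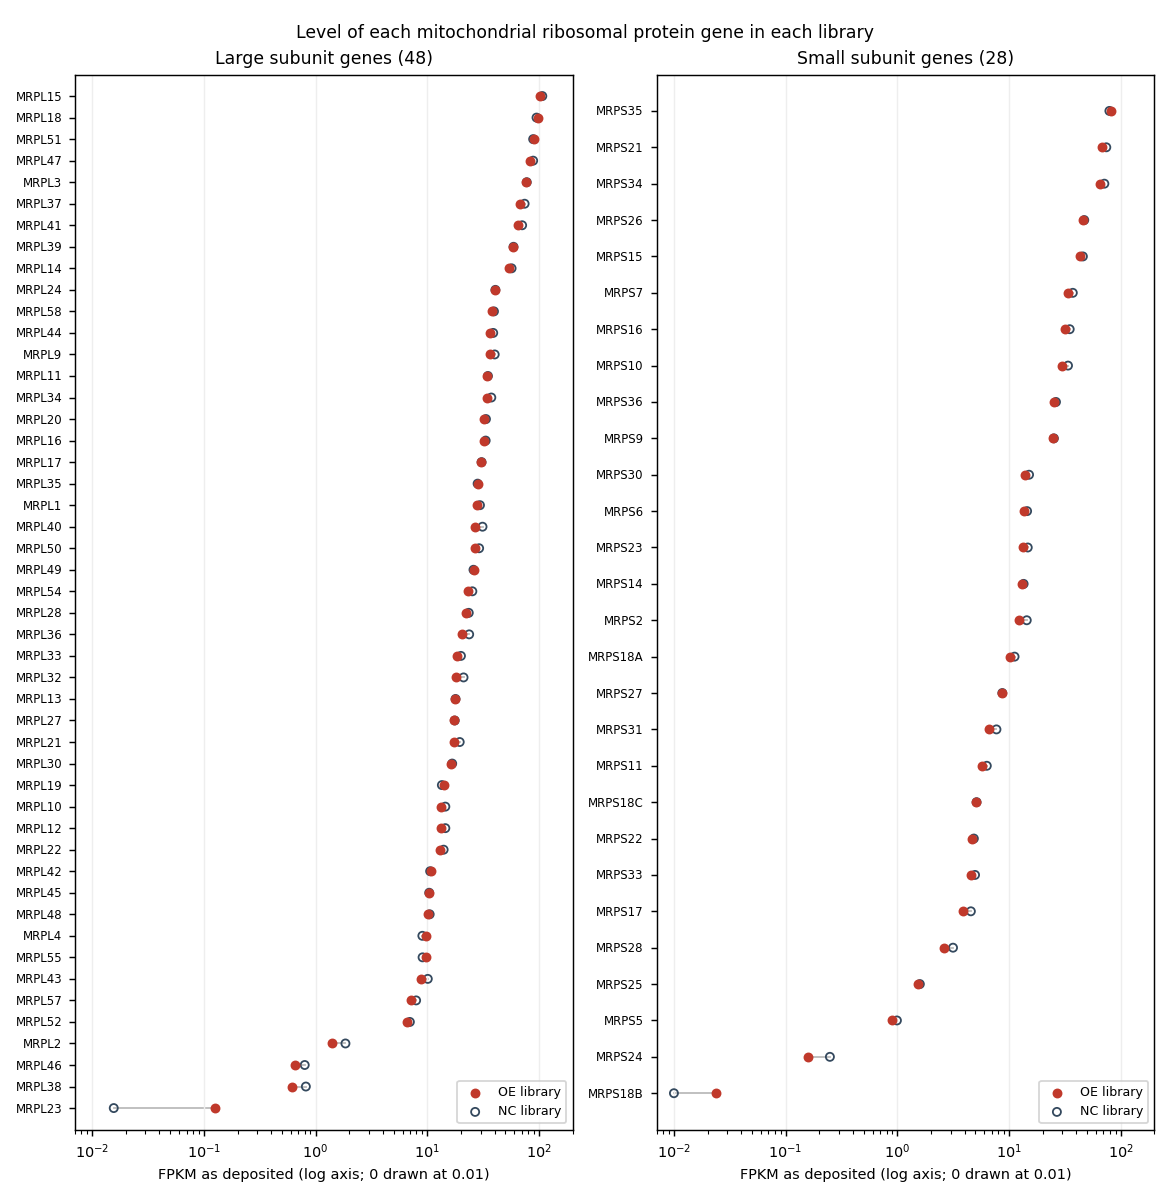
FPKM of each of the 48 large subunit genes (left) and 28 small subunit genes (right), with OE as filled points and NC as open points, on a log axis where a value of 0 is drawn at 0.01. The points of a gene nearly coincide for most genes, and the lowest values are those of MRPL23 on the left and of MRPS18B and MRPS24 on the right.

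Among the large subunit genes, MRPL15, the counterpart of a bacterial protein near the centre of the subunit, had the highest level, 102 FPKM in OE and 107 FPKM in NC. MRPL18, the counterpart of the bacterial protein that binds 5S rRNA, followed with 97.1 FPKM in OE and 95 FPKM in NC. MRPL51, found only in mitochondrial ribosomes, had 89.3 FPKM in OE and 88.6 FPKM in NC. These 3 genes and MRPL47, the counterpart of bacterial L29, lay within a narrow band at the top in both libraries. MRPL47 had 83.7 FPKM in OE and 88.6 FPKM in NC. MRPL58, a release factor that has become part of the large subunit, had 37.7 FPKM in OE and 39.5 FPKM in NC.

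On the FPKM scale the highest levels among the small subunit genes belonged mostly to proteins that bacteria lack, a pattern that depends on the lengths used. By counts per base of the longest transcript MRPS15 ranked 1st, MRPS7 5th and MRPS26 10th in both libraries. MRPS35 had 81.6 FPKM in OE and 79.1 FPKM in NC, MRPS34 had 65.6 FPKM in OE and 71.3 FPKM in NC, and MRPS26 had 46.0 FPKM in OE and 47.1 FPKM in NC. MRPS21, the counterpart of bacterial S21, stood between them with 68.2 FPKM in OE and 74.2 FPKM in NC. Low on this scale were MRPS25, another protein specific to mitochondria, with 1.54 FPKM in OE and 1.59 FPKM in NC, and MRPS5, the counterpart of bacterial S5, with 0.887 FPKM in OE and 0.991 FPKM in NC.

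The order on the FPKM scale depends on the gene lengths the authors used. Over the genes, the deposited length was a median of 1.52 times the longest GENCODE 29 transcript and ranged from 0.461 to 10.6 times. MRPS27 had 8036 counts in OE and 7340 in NC, among the highest of the small subunit, but 8.57 FPKM in OE and 8.70 FPKM in NC, because its deposited length was 19524 bases against 2785 bases for its longest transcript. By FPKM it ranked 17th of 28 in both libraries, and by counts per base of the longest transcript 6th in OE and 7th in NC. MRPS22, with 16385 bases deposited against 1547, and MRPS5, with 13738 against 1652, were affected in the same way.

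A group of low genes shared most of their sequence with another annotated gene. Of the 76 genes, 6 had at least 40% of the 31-base words of their longest transcript in another gene, which in each case overlaps it on the same strand. They were MRPS24 (80.8%, with URGCP-MRPS24), MRPL46 (70.3%, with AC013489.1), MRPL38 (69.2%, with AC087289.3), MRPL12 (67.2%, with AC139530.2), MRPS28 (50.7%, with AC036214.3) and MRPS17 (46.9%, with AC092647.5). Their counts ran from 20 to 641 in OE and from 28 to 631 in NC, below most of the other genes. Reads from such shared sequence can be split or dropped by a counter, so the levels of these 6 genes are uncertain. Whether the counting set their levels was not tested.

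**Figure D2:**
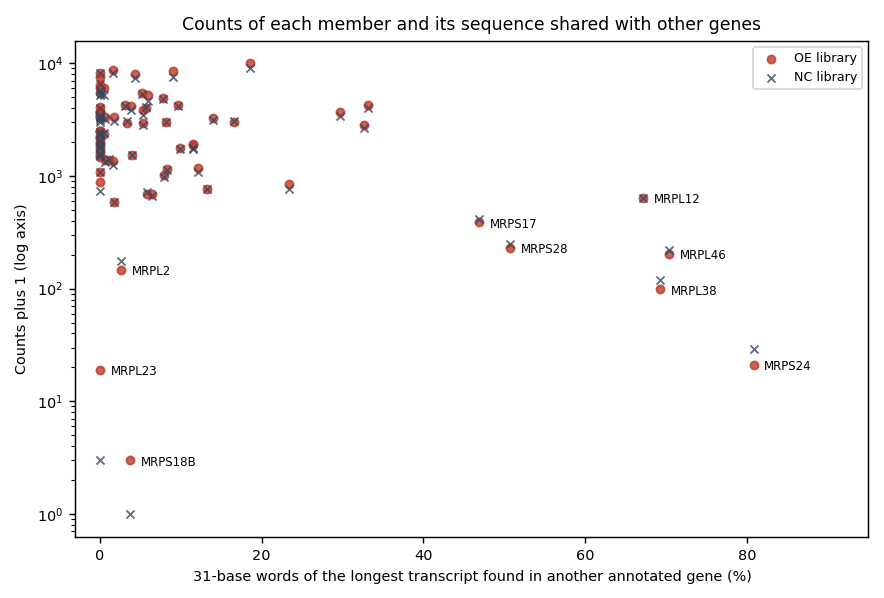
Counts plus 1 of each of the 76 genes (log axis) against the percent of its 31-base words found in another annotated gene, with OE as circles and NC as crosses. The 6 genes at 40% or more lie at 641 counts or fewer in both libraries. MRPL2, MRPL23 and MRPS18B are low with little sequence shared within the annotation searched.

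Low counts were also found without much sequence shared within the annotation searched. That annotation held 94.2% of the listed genes, and sharing with sequence outside it was not tested. MRPL23, the counterpart of a bacterial protein at the mouth of the peptide exit tunnel (ENSG00000214026, GRCh38 chromosome 11, 1947278 to 1984522, plus strand), had 18 counts, 0.376 CPM, in OE and 2 counts, 0.0462 CPM, in NC. The NC count was under the floor of 3 counts, which is 0.0627 CPM in OE and 0.0692 CPM in NC, and the ratio of 8.15 had a counting interval of 1.95 to 72.4. Its exons overlap those of MRPL23-AS1 on the opposite strand. MRPS18B had 2 counts in OE and 0 in NC, at or under the floor in both libraries, so no ratio was formed. MRPS24, the third gene under the minimum, had 20 counts in OE and 28 in NC with a ratio of 0.647 (0.345 to 1.19).

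MRPS18B belongs to a trio of paralogs that all descend from bacterial S18 and occupy different places in the ribosome. MRPS18C, which sits in the small subunit, had 1178 counts in OE and 1075 in NC, a ratio of 0.992 (0.913 to 1.08). MRPS18A, which structures place in the large subunit despite its name, had 684 counts in OE and 667 in NC, a ratio of 0.928 (0.833 to 1.03). The intervals of both held 1, and only the B paralog was near 0 in both libraries. MRPS18B lies in the major histocompatibility region (ENSG00000204568, chromosome 6, 30617709 to 30626395, plus strand).

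Overlap with other genes was common. The span of 47 of the 76 genes overlapped another annotated gene, with exons overlapping on the same strand in 15 and on the opposite strand in 28. The libraries were made by a dUTP method, which marks the strand, but the strand setting used for counting is not given in the sources used here. The 15 genes with same-strand overlap include MRPL38, MRPL46, MRPL12, MRPS17, MRPS24 and MRPS28, and also MRPL33 with BABAM2, MRPL28 with TMEM8A, MRPS6 with SLC5A3, MRPS16 with DNAJC9 and MRPS5 with ZNF514, whose values are uncertain to the extent that reads were shared. Opposite-strand exons overlap those of MRPL2 (with KLC4), MRPL38 (with AC087289.2), MRPL32 (with PSMA2) and MRPS2 (with C9orf116), all among the lowest ratios given below. Among the highest ratios they overlap those of MRPL4 (with AC011511.2 and AC011511.3), MRPL19 (with GCFC2), MRPL51 (with NCAPD2) and MRPL49 (with FAU and SYVN1).

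Across the 73 genes past the minimum, the OE library was slightly lower for most, by less than 1.1-fold for the typical gene. The median log2 ratio of CPM plus 1, OE over NC, was -0.07, with the middle 50% of genes between -0.13 and -0.02, against 0.0042 for all 14157 measured genes. Of the 73 genes, 62 (84.9%) lay below 0 and 11 above, where 48.9% of all measured genes lay below 0 and 51.1% above. No gene lay beyond 0.32 from 0 on this log2 scale (MRPL2 and MRPL38 did with a pseudocount of 0.1 CPM), where 3.51% of all measured genes were lower and 4.64% higher by at least that much. None reached 1.5-fold or 2-fold either, where 0.643% and 0.297% of all measured genes were lower and 1.02% and 0.381% higher by those folds. Of the 8890 genes of all kinds at 10 CPM or more in both libraries, 71 were lower and 171 higher by at least 0.32. With 1 library per group there is no replicate error and no test, so these are differences between 2 libraries, and in bulk RNA fewer cells of a kind and less RNA per cell cannot be told apart.

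At a smaller fold, 15 of the 73 genes (8 large, 7 small) were at least 1.1-fold lower in OE, where 16.8% of all measured genes were. None was at least 1.1-fold higher, where 20.4% of all measured genes were. The remaining 58 genes lay within 1.1-fold. The 95% counting interval of the CPM ratio lay wholly below 1 for 31 genes (19 large, 12 small), where 18.6% of all measured genes did so, and wholly above 1 for 3, where 22.8% did so. Whether an interval leaves out 1 depends on the counts, and these genes held more than most. At 10 CPM or more in both libraries, 28 of 68 genes of the set had an interval below 1 and 3 above. Of all 8890 genes at that level, 1968 had one below 1 and 2516 above. At 1.1-fold, 10 of the 68 were lower and 0 higher, where 938 and 1466 of the 8890 were. Low counts in both libraries were mostly even (63.3% of those from 1 to 20 in OE and 64.1% in NC), as when both mates of a pair are counted. With counts halved to allow for that, 17 genes had an interval below 1 (9 large, 8 small), where 10.9% of all measured genes did, and 0 had one above 1, where 15.9% did.

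**Figure D3:**
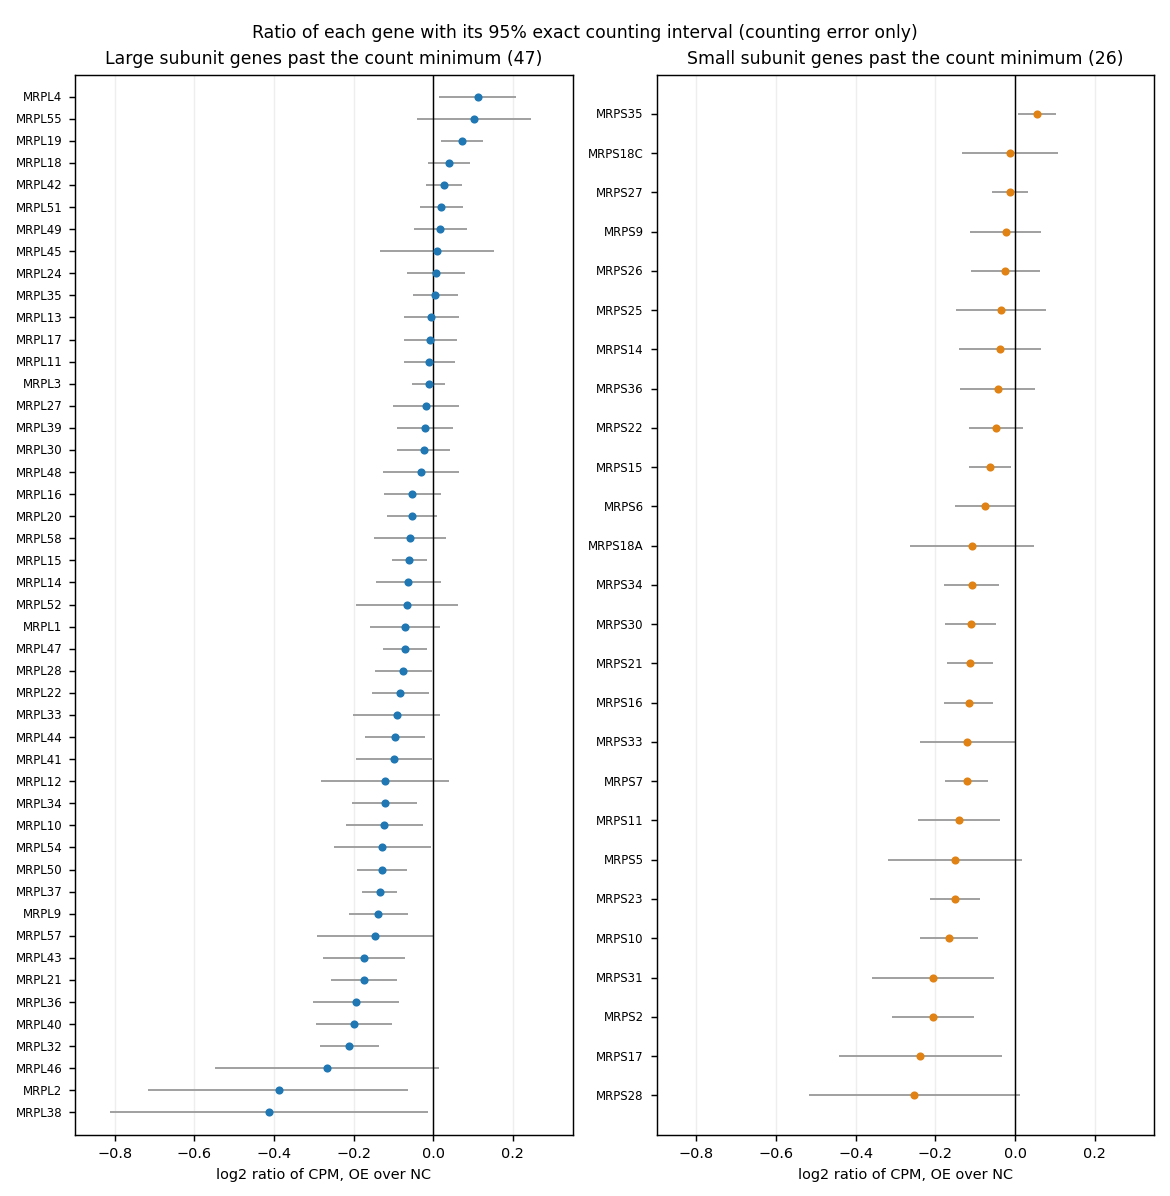
Log2 ratio of CPM, OE over NC, for the 47 large subunit genes (left) and 26 small subunit genes (right) past the count minimum, with lines for the 95% exact counting interval. Of the large subunit genes 10 lie right of 0, and of the small subunit genes 1, MRPS35.

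The small subunit genes lay lower than the large subunit genes. Their median log2 ratio was -0.11 and 25 of 26 (96.2%) were below 0, with a range from -0.21 to 0.05. The median of the large subunit genes was -0.06 and 37 of 47 (78.7%) were below 0, with a range from -0.30 to 0.11. The large subunit median was 0.045 above that of the small subunit, a difference smaller than the spread of the genes within either subunit, whose quartiles were -0.12 and -0.01 for the large and -0.14 and -0.04 for the small. The genes are not replicates of a subunit, so this difference carries no test. Sorting by structure, with MRPS30 and MRPS18A counted in the large subunit and MRPS36, now assigned to the 2-oxoglutarate dehydrogenase complex, left out, gave -0.07 over 49 large and -0.11 over 23 small subunit genes.

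**Figure D4:**
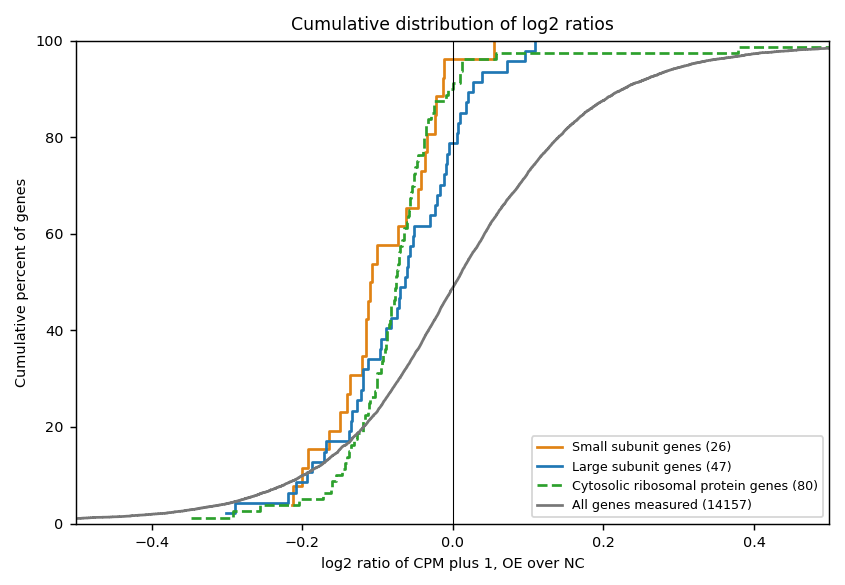
Cumulative percent of genes by log2 ratio of CPM plus 1, OE over NC, for 26 small subunit genes, 47 large subunit genes, 80 cytosolic ribosomal protein genes (dashed) and all 14157 measured genes; genes beyond the axis are not drawn. The curves of the 3 ribosomal groups reach 96.2%, 78.7% and 91.2% at 0, where that of all genes stands at 48.9%.

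On the log2 scale of CPM plus 1 the lowest value, -0.30, belonged to MRPL2 (ENSG00000112651, chromosome 6, 43054029 to 43059806, minus strand), the counterpart of the bacterial protein L2 near the peptidyl transferase centre. It had 146 counts, 3.05 CPM, in OE and 173 counts, 3.99 CPM, in NC, a ratio of 0.764 (0.609 to 0.958). MRPL38, specific to mitochondria, had 98 counts in OE and 118 in NC, a ratio of 0.752 (0.569 to 0.991) and a log2 value of -0.29. The order and size of these low-count genes depend on the pseudocount: with 0.1 CPM the log2 values were -0.39 for MRPL38 and -0.38 for MRPL2, and with 5 CPM they were -0.13 and -0.16, above that of MRPL32 at -0.20. MRPL46, also specific to mitochondria, had 203 counts in OE and 221 in NC, a ratio of 0.832 (0.684 to 1.01).

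The next lowest were both small subunit genes. MRPS17, the counterpart of bacterial S17, had 387 counts in OE and 413 in NC, a ratio of 0.848 (0.737 to 0.977). MRPS28 had 229 counts in OE and 247 in NC, a ratio of 0.839 (0.698 to 1.01). These 5 genes with the lowest log2 ratios were also the 5 genes past the minimum that lay under 10 CPM, all but MRPL2 share at least 40% of their sequence words with another gene, and with counts halved the interval of each held 1.

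At higher counts the lowest ratio was that of MRPL32 (ENSG00000106591, chromosome 7, 42932200 to 42948958, plus strand), which is cut to its mature form by the m-AAA protease before it joins the large subunit. It had 2923 counts, 61.1 CPM, in OE and 3063 counts, 70.7 CPM, in NC, a ratio of 0.864 (0.821 to 0.909). MRPS2, the counterpart of bacterial S2, had 1475 counts, 30.8 CPM, in OE and 1540 counts, 35.5 CPM, in NC, a ratio of 0.867 (0.807 to 0.932). MRPL40, whose gene lies in the region lost in 22q11 deletions, had 1715 counts, 35.8 CPM, in OE and 1782 counts, 41.1 CPM, in NC, a ratio of 0.871 (0.815 to 0.931). These 3 genes kept an interval below 1 with counts halved.

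Further genes of similar ratio held large counts as well. MRPS31 had 685 counts in OE and 715 in NC, a ratio of 0.867 (0.780 to 0.964). MRPL36, the small zinc-binding protein of the bacterial L36 family, had 1377 counts in OE and 1425 in NC, a ratio of 0.875 (0.812 to 0.943). MRPS10, the counterpart of bacterial S10, had 3009 counts in OE and 3057 in NC, a ratio of 0.891 (0.847 to 0.937). The ratios of MRPS10 and MRPL36 stayed below 1 over the whole interval with counts halved, and that of MRPS31 did not. MRPL37 had the narrowest interval among the genes at -0.13 or lower, with 8231 counts in OE and 8182 in NC and a ratio of 0.911 (0.883 to 0.939).

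The highest ratio was that of MRPL4 (ENSG00000105364, chromosome 19, 10251901 to 10260045, plus strand), the counterpart of a bacterial protein that lines the exit tunnel. It had 1899 counts, 39.7 CPM, in OE and 1591 counts, 36.7 CPM, in NC, a ratio of 1.08 (1.01 to 1.16), and its log2 ratio of 0.11 was 0.18 with trends in GC content and length removed. MRPL55, a large subunit protein, had 876 counts in OE and 739 in NC, a ratio of 1.07 (0.972 to 1.19). MRPL19, the counterpart of bacterial L19, had 6071 counts in OE and 5227 in NC, a ratio of 1.05 (1.01 to 1.09), but its log2 ratio of 0.07 was -0.018 without the same trends.

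MRPS35 was the single small subunit gene above 0 past the minimum, with 7561 counts, 158 CPM, in OE and 6591 counts, 152 CPM, in NC, a ratio of 1.04 (1.01 to 1.07). The remaining genes among the 8 highest were MRPL18, MRPL42, MRPL51 and MRPL49, with log2 ratios of 0.04, 0.03, 0.02 and 0.02. MRPL18 had 6404 counts in OE and 5640 in NC, and MRPL42 had 8464 in OE and 7520 in NC. MRPL51 had 5953 counts in OE and 5313 in NC, and MRPL49 had 3852 in OE and 3445 in NC. The intervals of these 4 held 1, and the log2 ratio of MRPL42 was -0.10 once trends with GC content and length were removed. Of the genes with high ratios, MRPL18, MRPL51 and MRPS35 were also among the 4 highest of their subunit by FPKM.

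By origin, the genes listed with a bacterial counterpart and those listed as found only in mitochondria had like ratios. These lists do not cover all 73 measured genes. Of 41 measured genes with a counterpart, 36 were below 0 and the median was -0.07. Of 25 measured genes specific to mitochondria, 20 were below 0 and the median was -0.10. In the stalk that recruits translation factors, MRPL10 had 1764 counts in OE and 1739 in NC, a ratio of 0.918 (0.859 to 0.982), and MRPL11 had 4205 in OE and 3832 in NC, a ratio of 0.993 (0.951 to 1.04). MRPL12, the stalk protein itself, had 641 counts in OE and 631 in NC, a ratio of 0.920 (0.823 to 1.03), and is one of the genes with shared sequence.

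Genes of higher level had ratios nearer to 0. Over the 73 genes the log2 ratio correlated with the log2 mean CPM with a Pearson r of 0.54 and a Spearman rho of 0.45, where over 13810 genes with known GC content and length the values were 0.04 and 0.07. The correlation with GC content was -0.23 (rho -0.26) over the 73 genes and -0.18 (rho -0.29) over all, and that with gene length was 0.10 (rho 0.04) over the 73 and 0.11 (rho 0.19) over all. All points share the same 2 libraries. The 37 genes at or above the median level of the set, 54.5 CPM, had a median log2 ratio of -0.06 with 29 below 0, and the 36 under it had -0.11 with 33 below 0. The 37 genes at or above the median GC content had a median of -0.11 and the 36 under it -0.04.

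**Figure D5:**
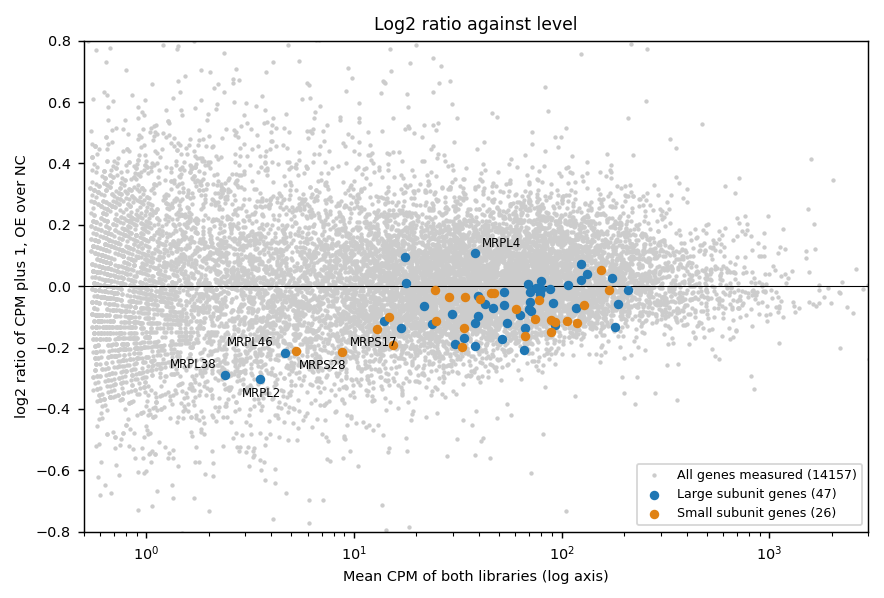
Log2 ratio of CPM plus 1, OE over NC, against mean CPM of both libraries (log axis) for the 47 large and 26 small subunit genes over all 14157 measured genes in grey; genes beyond the axes are not drawn. The 5 genes under 10 CPM lie at -0.21 or lower, and the genes at 10 CPM or more lie between -0.21 and 0.11.

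Leaving out the 5 low genes changed the median of the set and the share below 0 little. The 68 genes at 10 CPM or more in both libraries had a median log2 ratio of -0.07 with 57 below 0 (83.8%), where the 8890 genes of all kinds at that level had a median of 0.0066 with 47.9% below 0. Leaving out the genes with shared sequence gave the same median, with 57 of 68 below 0. Genes with the ETS core in their promoter had a median of -0.08 (21 of 22 below 0) and those without it -0.07 (34 of 43 below 0). Genes with the NRF1 site had a median of -0.04 (7 of 8 below 0) and those without it -0.07 (48 of 57 below 0).

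Many of the genes start close to a gene on the opposite strand. A neighbour whose start lay within 1000 bases upstream was annotated for 21 of the 76 genes, and in 16 pairs both genes passed the minimum. Both were below 0 in 13 pairs, both above 0 in none, and 3 pairs lay on opposite sides of 0. Of all measured genes, taken singly, 48.9% lay below 0, and of the 73 measured genes of the set 84.9%. No such count was made for pairs of other genes, so the count of pairs has no background of its own. The measured neighbours, with MRPS11 of the set itself among them, had a median log2 ratio of -0.13, against 0.0042 for all measured genes. None differed by 1.5-fold. The neighbours LRRC46, DNAJC9-AS1 and MRPS30-DT were little past the minimum, and their intervals held 1. NDUFS6 and ZNF189, counted below 0, lay near it at -0.02 and -0.01, and their intervals also held 1. The intervals of IGHMBP2, MITD1, PNPLA7, MRPS11, NDUFB5, APBA3, SKA3 and EME2 lay below 1. MRPL46 and MRPS11, a large and a small subunit gene, start 34 bases apart, and MRPS11 had 1539 counts in OE and 1536 in NC, a log2 ratio of -0.14 against -0.22 for MRPL46.

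Several neighbours belong to the respiratory chain or to other complexes. NDUFB5, a subunit of complex I that starts 36 bases from MRPL47 across the short sequence printed above, had 2026 counts in OE and 2059 in NC, a log2 ratio of -0.16 against -0.07 for MRPL47. NDUFS6, another complex I subunit, 34 bases from MRPL36, had 2334 counts in OE and 2140 in NC, a log2 ratio of -0.02 against -0.19 for MRPL36. The lower value of MRPL36 was thus not matched by its neighbour. TCP1, a subunit of the cytosolic chaperonin 63 bases from MRPL18, had 29906 counts in OE and 27170 in NC, a log2 ratio of -0.01 against 0.04 for MRPL18. EME2, 52 bases from MRPS34, had 1009 counts in OE and 1030 in NC, a log2 ratio of -0.17 against -0.11 for MRPS34.

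Transcripts related by name were few and low. The 24 listed pseudogenes of the set summed to 297 counts in OE and 325 in NC, and 3 of them passed the minimum. MRPL3P1, a pseudogene of MRPL3, had 101 counts in OE and 114 in NC, beside 9986 in OE and 9112 in NC for MRPL3 itself. Among the antisense and divergent transcripts, MRPL20-DT had 337 counts in OE and 391 in NC, a ratio of 0.780 (0.672 to 0.905), while MRPL20 had 4256 counts in OE and 4000 in NC, a ratio of 0.963 (0.922 to 1.01).

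Proteins of the mitochondrial ribosome with other names showed the same small differences, and all 5 were below 0 with a median log2 ratio of -0.05. DAP3, a GTP-binding protein of the small subunit, had 15823 counts in OE and 14808 in NC, a ratio of 0.967 (0.946 to 0.989). AURKAIP1, also of the small subunit, had 3903 counts in OE and 3699 in NC, a ratio of 0.955 (0.913 to 0.999). The intervals of these 2 lay below 1, and those of GADD45GIP1 at 0.963 (0.904 to 1.02), CHCHD1 at 0.977 (0.920 to 1.04) and PTCD3 held 1.

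Factors that assemble the ribosome had a median of -0.06 over 27 measured genes, with 20 below 0. MTG1, a GTPase of large subunit assembly, had 142 counts in OE and 199 in NC, a ratio of 0.646 (0.517 to 0.805). MRM1, which methylates the large ribosomal RNA, had 79 counts in OE and 111 in NC, a ratio of 0.644 (0.477 to 0.868). Both lay further from 1 than any measured gene of the ribosomal proteins, at low counts. RPUSD4, a pseudouridine synthase, had 1450 counts in OE and 1533 in NC, a ratio of 0.856 (0.796 to 0.921), and DDX28, an RNA helicase, had 1041 in OE and 1078 in NC, a ratio of 0.874 (0.802 to 0.953). Of the 27 factors, 9 were at least 1.1-fold lower and 2 at least 1.1-fold higher, where 16.8% and 20.4% of all measured genes were. The 2 higher were NOA1, a GTPase, with 1544 counts in OE and 1224 in NC, a ratio of 1.14 (1.06 to 1.23), and METTL15, an RNA methyltransferase, with 1716 in OE and 1388 in NC, a ratio of 1.12 (1.04 to 1.2).

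The factors that work with the finished ribosome were divided in direction. Of 15 measured translation factors 8 were below 0 and the median was -0.01. MRRF, the ribosome recycling factor, had 3716 counts in OE and 3666 in NC, a ratio of 0.918 (0.876 to 0.961), and OXA1L, which inserts new chains into the inner membrane, had 8794 in OE and 8524 in NC, a ratio of 0.934 (0.906 to 0.962). MTRF1, a release factor, had a ratio of 1.1 (0.951 to 1.27), and MTFMT, which formylates the initiator, had 1.08 (0.997 to 1.17). Of 15 genes of mitochondrial transcription and RNA handling 8 were below 0 and the median was -0.02. The lowest of these were SUPV3L1, an RNA helicase, with 0.888 (0.846 to 0.931), HSD17B10, a subunit of RNase P, with 0.899 (0.857 to 0.943), TBRG4, an RNA stability factor, with 0.905 (0.872 to 0.941), and TFAM, which packages mitochondrial DNA, with 0.922 (0.870 to 0.978).

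The RNAs of the ribosome are captured by poly(A) selection only through their short tails, so their counts are not a measure of ribosome number. MT-RNR2, the large subunit RNA, had 496276 counts in OE and 513804 in NC, a ratio of 0.874 (0.871 to 0.878). MT-RNR1, the small subunit RNA, had 52285 counts in OE and 49712 in NC, a ratio of 0.952 (0.940 to 0.964). The RNA of the large subunit was thus the lower in OE, whereas among the protein genes it was the small subunit set that had the lower median. Of the 13 protein-coding genes of the mitochondrial genome, whose messages the ribosome translates, 12 were below 0 with a median log2 ratio of -0.15. The lowest was MT-ND2, a complex I subunit, with a ratio of 0.848 (0.842 to 0.855), followed by MT-ND1 with 0.857, MT-CYB with 0.862 and MT-ND4L with 0.869. The cytosolic ribosomal protein genes, the counterpart set outside the organelle, had a median log2 ratio of -0.08 over 80 measured genes with 73 below 0, against -0.07 and 62 of 73 for the mitochondrial set. Its genes furthest from 0 were RPL7A with 307 counts in OE and 16 in NC, RPS2 with 89 in OE and 52 in NC, RPL21 with 11875 in OE and 13687 in NC, and RPS9 with 49 in OE and 64 in NC. RPL7A, RPS2 and RPS9 held far fewer counts than the median of the cytosolic set, 18465 in OE and 17931 in NC. Their levels and ratios are therefore uncertain, and why their counts were low was not tested. No measured gene of the mitochondrial set lay as far from 0 as RPL7A, RPS2 or RPL21.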

How the data were processed

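The authors deposited a table of raw counts for each gene (whole numbers, per the file headers) with 1 OE and 1 NC library. They also deposited FPKM values; dividing counts by FPKM returned whole-number gene lengths (to within 0.01) for 99.98% of genes in OE and 100% in NC. The log2 fold changes of OE over NC that the authors deposited served only as an alternative for single genes. Reads were placed on GRCh38, as the submitters' processing notes state. Which aligner, counter, strand setting and annotation release were used is not given in the sources used here. Per the labels' protocols, libraries were made from poly(A) RNA with dUTP and PCR, and no molecular identifiers are described, so counting intervals and floors cover counting error only.

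CPM was computed with TMM factors (edgeR 4.0.16, R 4.3.3). Ratios are OE over NC. The log2 ratio was that of CPM plus 1, which understates differences of low genes, over 14157 genes with at least 50 counts in all. Counts past a fold used that scale, while intervals are 95% exact (Clopper-Pearson) intervals of the CPM ratio. In simulated counts with Poisson noise, 95.47% of the intervals held the true ratio over 14157 genes. The interval assumes such noise, so this checks the computation only and does not cover counts made in pairs. Positions, overlaps and shared 31-base words came from GENCODE 29 on GRCh38, which held 26405 of the listed genes (94.2%). Genes were named by rule: the 8 highest and 8 lowest ratios, the 4 highest and 4 lowest FPKM of each subunit, the MRPS18 paralogs, genes under the minimum, overlapping genes, and the 4 genes of each other list furthest from 0. Other genes named were chosen after their values were seen, as was the printing of the 6 promoters. The genes and lists were chosen with earlier results of these data known. Alternatives were library totals, DESeq2 1.42.0 size factors, other pseudocounts, minimums and folds, FPKM plus 1, the deposited fold changes, removal of GC and length trends, subunits by structure, and omission of overlapping genes; omission of genes with shared sequence or under 10 CPM was added after seeing the data. The rest was done in Python 3.11.15 (scipy 1.17.1, numpy 2.4.6, pandas 2.3.3, matplotlib 3.10.9).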

Additional observations from a re-analysis of the deposited data

How the results depend on the processing

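No paired analysis was possible because each group has 1 library, and for the same reason no library could be left out. Over the alternatives tried, the median log2 ratio of the large subunit genes ran from -0.0727 with library totals to -0.0481 with GC and length trends removed, and that of the small subunit genes from -0.118 to -0.0807. The median of the large minus that of the small subunit ran from 0.0326 to 0.0479. Without the genes that overlap another gene, 24 genes lay below 0 and 5 above, of 29 left. The count at least 1.1-fold lower was 0 at each of the 3 larger folds, which rests on the pseudocount of 1 CPM: with 0.1 CPM MRPL2 and MRPL38 were at -0.38 and -0.39, past the first of these folds. With 5 CPM MRPL46 and MRPS28 were both at -0.13, against -0.22 and -0.21. The count at least 1.1-fold higher was 1 with a minimum of 10 counts or with none, and 2 with the trends removed. Genes with an interval below 1 numbered 17 with halved counts; those with an interval above 1 numbered 0 with halved counts and 5 with the trends removed. With the trends removed the log2 ratio of MRPL19 reversed to -0.018, that of MRPL42 moved to -0.10, that of MRPS26 to 0.014 and that of MRPL4 to 0.18. Apart from the effect of testing fewer genes or a larger fold, the cause was not tested. Scaling moved the median of all genes by -0.0082 with library totals and 0.0047 with DESeq2 size factors.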
